A study of Mus musculus and Homo sapiens with 24 samples.

Results

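The genes described here are 36 human genes of the ATF4 arm of the integrated stress response, measured in HepG2 cells, a human hepatoma line used as a liver cell model. They were chosen by symbol as ATF4, the factors that act with or against it and genes it is known to induce. Their measured values were no part of the rule, although earlier results of these data were known when they were chosen. All 36 were found in the HepG2 count table, which lists 28278 genes. The 4 groups of 3 cultures (A, B and C) were treated for 4 h: control, CoCl2 at 50 μM, estrogen (β-estradiol) at 25 nM, and CoCl2+estrogen with both agents at those doses. All cells were of 1 line and, per the study's methods, had been kept without serum overnight, so the controls share that treatment. CoCl2 stabilizes HIF1α and is used to mimic hypoxia. In HepG2 cells the study examined the joint effect of estrogen and hypoxia, and its RNA-Seq figures set each treatment against control. Here each treatment was also compared with control. The double treatment was further compared with each single treatment, and the estrogen effect with and without CoCl2.

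ATF4 is a transcription factor whose mRNA is translated better when the initiation factor eIF2 is phosphorylated. Kinases that sense misfolded protein, amino acid shortage, double-stranded RNA or heme shortage make that phosphorylation. ATF4 then induces genes for amino acid supply and, with DDIT3 and ATF3, genes for stress feedback and cell death. Its protein level is therefore set largely by translation, which read counts of mRNA do not measure.

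The counts of a library summed to between 13592637 and 21701480. The library CoCl2 B stood apart from the other CoCl2 libraries, with a chi-square per degree of freedom of 61.4 and 42.9 against them, where the other replicate pairs lay between 6.15 and 15.97. Counts of called members in the comparisons that use it are also given without it. Levels are CPM, read counts brought to a common library total, after TMM (trimmed mean of M values) scaling over the 12 libraries. A gene was called changed when the quasi-likelihood test of edgeR gave a p of at most 0.05 after Benjamini-Hochberg adjustment over all tested genes. The labels do not say that the 3 cultures of a group were grown separately, so p-values measure only the spread between these samples. The hepatocyte marker ALB was at 6320.3, 7024 and 6694 CPM in the control cultures, and the leukocyte marker PTPRC was at 0 in all 12 libraries. Other listed markers of non-hepatocyte cells were not all absent. Control means were 451, 57.4, 29.1 and 20.8 CPM for KRT19, ACTA2, CD68 and COL1A1. For PECAM1, SFTPC and VIM they were 0.733, 0.037 and 0 CPM. ESR1, the estrogen receptor α gene, was near the detection limit in the control cultures, at 0.103, 0.182 and 0.292 CPM, and was at 3.05, 3.50 and 5.14 CPM with estrogen. Other estrogen receptor and target genes were also checked. Mean levels in control and with estrogen were 34.1 and 32.7 CPM for GPER1, 192 and 127 for GREB1, and 35.4 and 8.02 for PDZK1. ESR2, PGR and TFF1 were near the detection limit in both groups.

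Estrogen changed nearly the whole ATF4 response, mostly upward. Of the 34 members that passed the filter on low counts (a count above 5 in at least 1 library), 27 were higher, 6 were lower and GPT2 was not called. A call alone says little here, because 68.9% of all tested genes were called in this comparison, 34.7% higher and 34.2% lower. By the stricter rule of a call with more than a 2-fold rise, 24 of the 34 members passed, beside 15.1% of all tested genes. In either direction 25 members passed, beside 29.3% of all tested genes. The median log2 change was 1.37 over the members and -0.00 over all genes. The 3 estrogen cultures did not overlap the 3 controls for 32 of the 34 members, beside 71.9% of all tested genes. The members together held 0.538% to 0.555% of the counts in control libraries and 1.47% to 1.57% in estrogen libraries. All 8 hepatocyte markers fell in the same comparison, with ALB falling by 1.39 ± 0.06 (standard error, SE) on the log2 scale, and their part in these results was not tested. In bulk RNA, fewer cells of a kind and less RNA per cell cannot be told apart.

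**Figure D1:**
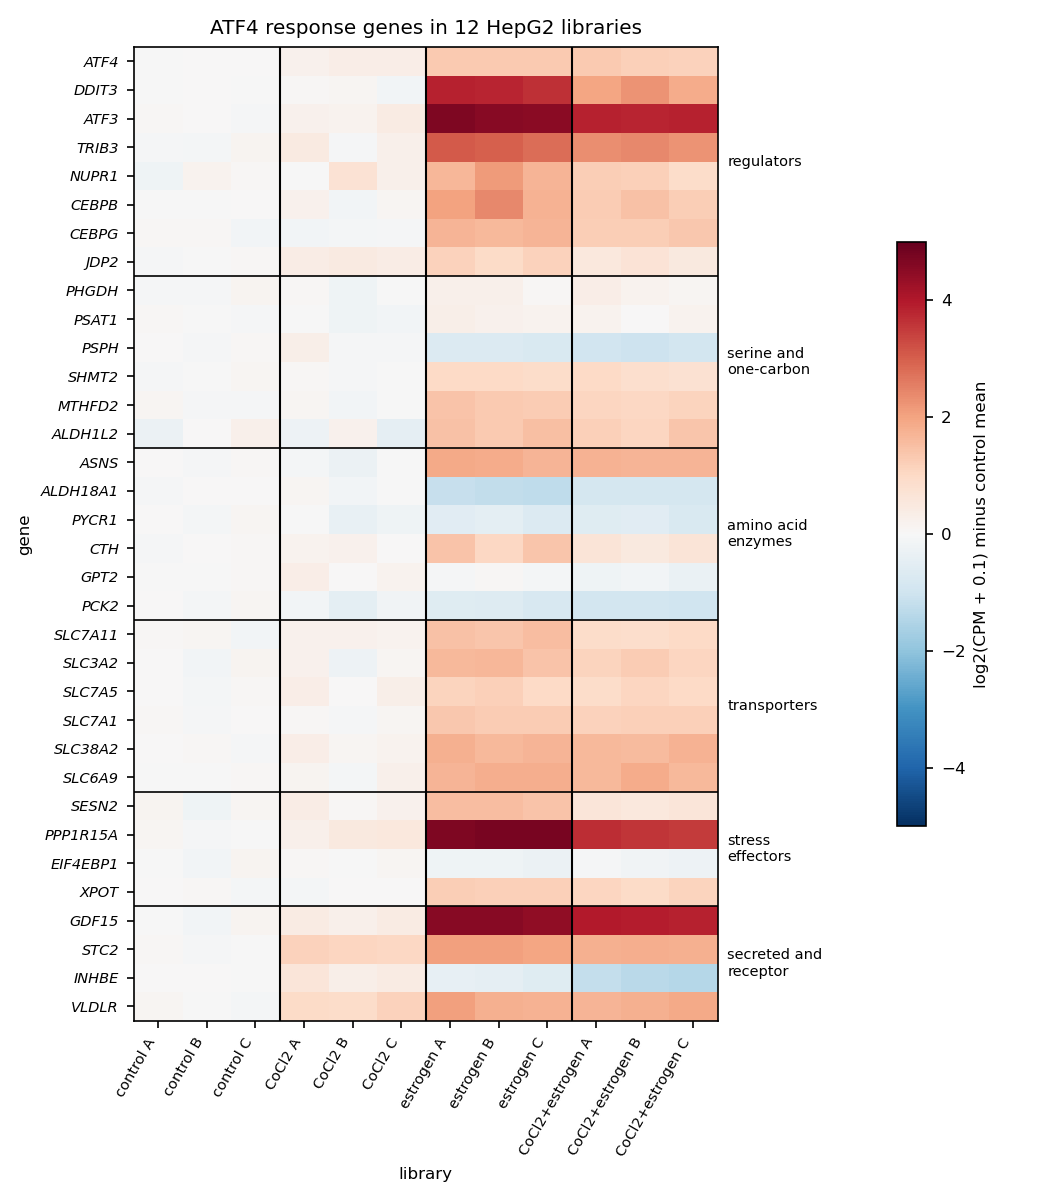
Heat map of the 34 tested members (rows, by role) in the 12 HepG2 libraries (columns), coloured by log2(CPM + 0.1) minus the mean of the 3 control libraries. The 6 libraries with estrogen are red for most members, and PSPH, ALDH18A1, PYCR1, PCK2 and INHBE are blue there.

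All 8 regulators rose with estrogen, beside 34.7% of all tested genes called higher. ATF4 was at 265, 275 and 276 CPM in the control cultures, 316, 344 and 339 with CoCl2, 679, 676 and 683 with estrogen and 680.3, 623 and 604 with both. The estrogen cultures lay together and above every control and CoCl2 culture. The log2 change was 1.31 ± 0.05 (SE), a 2.47-fold rise (edgeR adjusted p = 1.32e-11).

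DDIT3 (CHOP), a C/EBP-family factor linked to cell death under prolonged stress, was at 5.22, 5.28 and 5.19 CPM in the control cultures, 5.39, 5.59 and 4.72 with CoCl2, 77.1, 75.5 and 66.4 with estrogen and 20.6, 25.2 and 19.1 with both. Control and CoCl2 cultures overlapped, the estrogen cultures were 13.8-fold above control, and the double-treated cultures lay between without overlap. ATF3, an immediate stress-responsive repressor and activator, was at 7.65, 7.47 and 7.004 CPM in the control cultures, 8.46, 8.42 and 9.93 with CoCl2, 192, 175 and 172 with estrogen and 108, 104 and 108 with both. It rose 24.1-fold with estrogen (log2 change 4.59 ± 0.08, edgeR adjusted p = 4.18e-15), which ranked 9th by p among the 16281 tested genes. TRIB3, a pseudokinase that feeds back on ATF4 and DDIT3, was at 71.7, 69.1 and 82.4 CPM in the control cultures, 101, 72.04 and 88.7 with CoCl2, 622, 597 and 516 with estrogen and 372, 391 and 348 with both. Every estrogen and double-treated culture was above every control culture, and the log2 change with estrogen was 2.95 ± 0.08 (edgeR adjusted p = 2.50e-13).

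NUPR1, a small stress-induced chromatin protein, was at 10.3, 13.5 and 12.5 CPM in the control cultures, 11.7, 19.7 and 14.4 with CoCl2, 38.1, 52.5 and 39.2 with estrogen and 28.6, 27.9 and 22.9 with both. Its CoCl2 cultures overlapped control and spread widely, CoCl2 B being highest. CEBPB, a liver C/EBP factor that dimerizes with ATF4, was at 72.1, 71.9 and 74.5 CPM in the control cultures, 83.6, 65.7 and 77.4 with CoCl2, 290.1, 384 and 244 with estrogen and 176, 201 and 172 with both. Estrogen B was the highest culture, and all estrogen cultures exceeded the double-treated ones. The estrogen changes of NUPR1 and CEBPB were 1.82 ± 0.13 and 2.06 ± 0.12 on the log2 scale (edgeR adjusted p = 9.22e-09 and 8.25e-10).

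JDP2, an AP-1 family repressor, showed the smallest estrogen change of the regulators and was at 5.73, 5.87 and 6.24 CPM in the control cultures, 7.76, 8.20 and 7.81 with CoCl2, 13.2, 11.8 and 13.5 with estrogen and 8.55, 9.73 and 8.49 with both. Its estrogen cultures did not overlap control (log2 change 1.10 ± 0.12, edgeR adjusted p = 9.34e-07). CEBPG, another C/EBP partner of ATF4, rose from 69.9 ± 5.21 to 222 ± 6.81 CPM (SD, n = 3) with estrogen. Whether the counting used strand is not stated, and without it reads of a gene and its antisense partner cannot be told apart. CEBPB-AS1, SLC7A11-AS1 and VLDLR-AS1 held 1.37%, 1.19% and 0.457% as many counts as CEBPB, SLC7A11 and VLDLR.

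**Figure D2:**
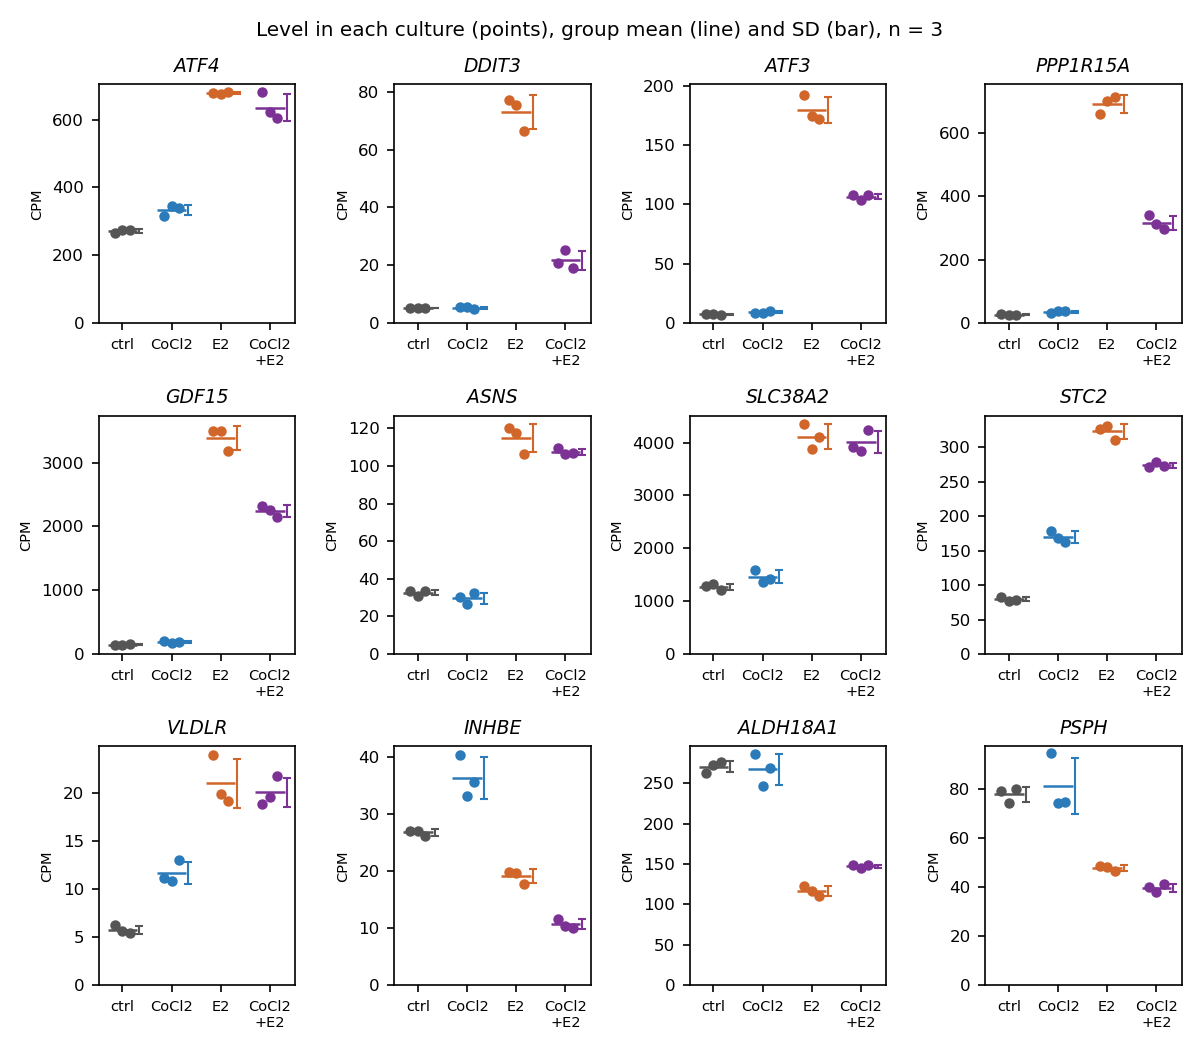
Level (CPM, linear axis from 0) of 12 members in each culture (points), with the group mean (line) and SD (bar, n = 3), for control (ctrl), CoCl2, estrogen (E2) and CoCl2+estrogen. DDIT3 and PPP1R15A are lower in the double-treated cultures than with estrogen alone, whereas ASNS and SLC38A2 overlap between those groups.

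The serine and one-carbon genes split. The mitochondrial folate enzymes rose, while the serine synthesis enzymes moved little or fell. Of the 6, 5 were called higher and 1 lower with estrogen, beside 34.7% higher and 34.2% lower among all tested genes. ALDH1L2, which oxidizes formyl-tetrahydrofolate to CO2 in mitochondria, was at 2.63, 3.28 and 3.91 CPM in the control cultures, 2.69, 3.73 and 2.34 with CoCl2, 9.10, 8.22 and 9.39 with estrogen and 7.49, 7.01 and 8.69 with both. Its estrogen cultures were all above control, with the largest log2 change of the group, 1.43 ± 0.16 (edgeR adjusted p = 1.14e-06). MTHFD2, the mitochondrial methylene-tetrahydrofolate dehydrogenase, rose by 1.31 ± 0.07 and SHMT2, the mitochondrial serine hydroxymethyltransferase, by 0.96 ± 0.06 on the log2 scale.

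PSPH, the last enzyme of serine synthesis, was at 79.1, 74.5 and 80.3 CPM in the control cultures, 94.6, 74.4 and 74.7 with CoCl2, 48.7, 48.2 and 46.4 with estrogen and 39.9, 38.1 and 41.3 with both. All estrogen and double-treated cultures were below every control culture. Its level fell by 0.72 ± 0.06 on the log2 scale with estrogen (edgeR adjusted p = 8.68e-08). PHGDH and PSAT1, the first and second enzymes of the same pathway, were called higher but by only 0.17 ± 0.07 and 0.21 ± 0.06 on the log2 scale (edgeR adjusted p = 0.0470 and 0.00514). The PHGDH groups overlapped, and its call was kept in 6 of 14 alternatives, being lost, among others, with library totals or upper-quartile scaling and without control A, control B, estrogen A or estrogen B (adjusted p 0.0110 to 0.616). The PSAT1 call was lost with library totals in place of TMM (adjusted p over 14 alternatives 0.000678 to 0.218).

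The amino acid enzymes went both ways: 2 rose, 3 fell and 1 was not called with estrogen. Of all tested genes, 34.7% were called higher and 34.2% lower in this comparison. ASNS, asparagine synthetase and a standard reporter of ATF4 activity, was at 33.4, 30.9 and 33.6 CPM in the control cultures, 30.1, 26.4 and 32.3 with CoCl2, 120.3, 117 and 106 with estrogen and 109, 106 and 107 with both. Estrogen and double-treated cultures overlapped and were all above control and CoCl2 (log2 change with estrogen 1.80 ± 0.07, edgeR adjusted p = 9.48e-12). CTH, which makes cysteine from cystathionine, was at 5.42, 5.74 and 5.95 CPM in the control cultures, 6.47, 6.63 and 5.75 with CoCl2, 15.5, 11.6 and 15.2 with estrogen and 8.88, 8.04 and 9.03 with both. With estrogen alone CTH was above all other groups, by 1.30 ± 0.14 against control (edgeR adjusted p = 5.05e-07).

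ALDH18A1, which starts proline synthesis from glutamate, was at 263, 273 and 276 CPM in the control cultures, 286, 247 and 269 with CoCl2, 123, 116 and 111 with estrogen and 148, 145 and 148 with both. It was the 1 member that fell more than 2-fold with estrogen, beside 14.2% of all tested genes, by 1.23 ± 0.06 on the log2 scale (edgeR adjusted p = 1.01e-10). PYCR1, the last step of the same pathway, fell by 0.60 ± 0.07 and PCK2, the mitochondrial phosphoenolpyruvate carboxykinase, by 0.71 ± 0.07. GPT2, the mitochondrial alanine aminotransferase, had a log2 difference of -0.04 ± 0.06 with a 95% interval of -0.17 to 0.09 (edgeR adjusted p = 0.614).

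All 6 amino acid transporters rose with estrogen, each more than 2-fold by the fitted change, beside 15.1% of all tested genes. SLC6A9, a glycine transporter, was at 11.2, 11.2 and 11.9 CPM in the control cultures, 12.6, 10.5 and 13.7 with CoCl2, 37.2, 40.95 and 40.6 with estrogen and 35.2, 41.3 and 35.4 with both. The estrogen and double-treated cultures were 3.44-fold and 3.21-fold above control and overlapped. SLC38A2, a sodium-coupled importer of neutral amino acids such as glutamine, rose from 1274 ± 55.8 to 4112 ± 239 CPM (SD, n = 3).

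SLC7A5, the light chain of the large neutral amino acid exchanger, was at 882, 821 and 919 CPM in the control cultures, 1101, 885 and 1082 with CoCl2, 1877, 1994 and 1742 with estrogen and 1669, 1819.8 and 1759 with both. It had the smallest change of the group, 1.08 ± 0.06 on the log2 scale (edgeR adjusted p = 7.66e-10). Its value is uncertain to the extent that reads are shared with the pseudogene SLC7A5P2, which was given 3.12% as many counts. SLC7A11, the cystine-glutamate antiporter, was at 104, 105 and 89.2 CPM in the control cultures, 116, 116 and 112 with CoCl2, 270.0, 261 and 287 with estrogen and 186, 181 and 198 with both. The 4 groups of SLC7A11 were ordered control, CoCl2, double treatment and estrogen without overlap, although the step from control to CoCl2 was not called. SLC3A2, the heavy chain that carries both SLC7A5 and SLC7A11, and SLC7A1, an arginine and lysine importer, rose by 1.55 ± 0.08 and 1.28 ± 0.06 on the log2 scale.

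Of the stress effectors, PPP1R15A (GADD34), the phosphatase subunit that brings eIF2 back to its unphosphorylated state, had the largest rise of any member. It was at 27.8, 24.8 and 25.8 CPM in the control cultures, 31.4, 36.95 and 38.00 with CoCl2, 660.3, 699 and 712 with estrogen and 340.5, 311 and 297 with both. The 4 groups did not overlap, and the 26.1-fold rise with estrogen (log2 change 4.71 ± 0.07, edgeR adjusted p = 9.56e-16) ranked 4th by p among all tested genes. SESN2, a leucine-sensing inhibitor of mTORC1, was at 31.8, 25.1 and 31.2 CPM in the control cultures, 37.9, 30.2 and 33.7 with CoCl2, 84.3, 84.7 and 78.8 with estrogen and 45.05, 41.8 and 45.03 with both. Estrogen cultures were above all others, by 1.48 ± 0.08 on the log2 scale against control (edgeR adjusted p = 5.25e-10).

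EIF4EBP1, which holds back cap-dependent translation, was at 46.8, 43.3 and 51.4 CPM in the control cultures, 48.9, 46.6 and 50.5 with CoCl2, 40.3, 40.2 and 38.2 with estrogen and 44.8, 41.5 and 39.6 with both. Its estrogen cultures were below control by 0.27 ± 0.07 on the log2 scale (edgeR adjusted p = 0.00511). XPOT, the tRNA export receptor, rose by 1.19 ± 0.06. CHAC1, a glutathione-degrading enzyme, was under the count filter of every fit: 0 in each of the 6 control and CoCl2 libraries, 1, 2 and 4 with estrogen, and 3, 3 and 0 with both. Without the filter CHAC1 was called higher with estrogen (edgeR adjusted p = 0.0297) and was not called with both agents against control or against CoCl2 (edgeR adjusted p = 0.0543 and 0.0684). A count of 0 allows up to 3 counts, so no fold is given. FGF21, a secreted hepatokine also under the filter, had 1, 1 and 2 counts in the estrogen libraries and 0 in the other 9, and was not called with estrogen without the filter (edgeR adjusted p = 0.107).

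Among the genes for secreted factors and a receptor, GDF15, a stress hormone that acts on appetite, was at 147, 137 and 163 CPM in the control cultures, 199, 176 and 196 with CoCl2, 3493, 3489.7 and 3176 with estrogen and 2323, 2264 and 2146 with both. Every estrogen culture was above every double-treated one, and both were far above control and CoCl2. The rise with estrogen was 22.6-fold (log2 change 4.50 ± 0.07, edgeR adjusted p = 1.82e-15). STC2, stanniocalcin-2, was at 82.97, 76.95 and 78.97 CPM in the control cultures, 179, 169 and 162 with CoCl2, 327, 331 and 311 with estrogen and 272, 279 and 273 with both. All 4 groups were separate, with CoCl2 alone already 2.14-fold and estrogen alone 4.02-fold above control.

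VLDLR, the very-low-density lipoprotein receptor, was at 6.20, 5.60 and 5.37 CPM in the control cultures, 11.1, 10.9 and 12.98 with CoCl2, 23.9, 19.9 and 19.2 with estrogen and 18.8, 19.6 and 21.8 with both. CoCl2 cultures lay between control and the estrogen-containing cultures, which overlapped each other. INHBE, the inhibin βE subunit secreted by the liver, was at 27.1, 27.1 and 26.1 CPM in the control cultures, 40.3, 33.1 and 35.6 with CoCl2, 19.9, 19.7 and 17.7 with estrogen and 11.7, 10.4 and 9.92 with both. It went up with CoCl2 and down with estrogen, and was lowest with both, with no overlap between any of the 4 groups. It fell by 0.50 ± 0.09 with estrogen and by 1.36 ± 0.10 with both agents on the log2 scale against control (edgeR adjusted p = 0.000152 and 2.32e-08).

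**Figure D3:**
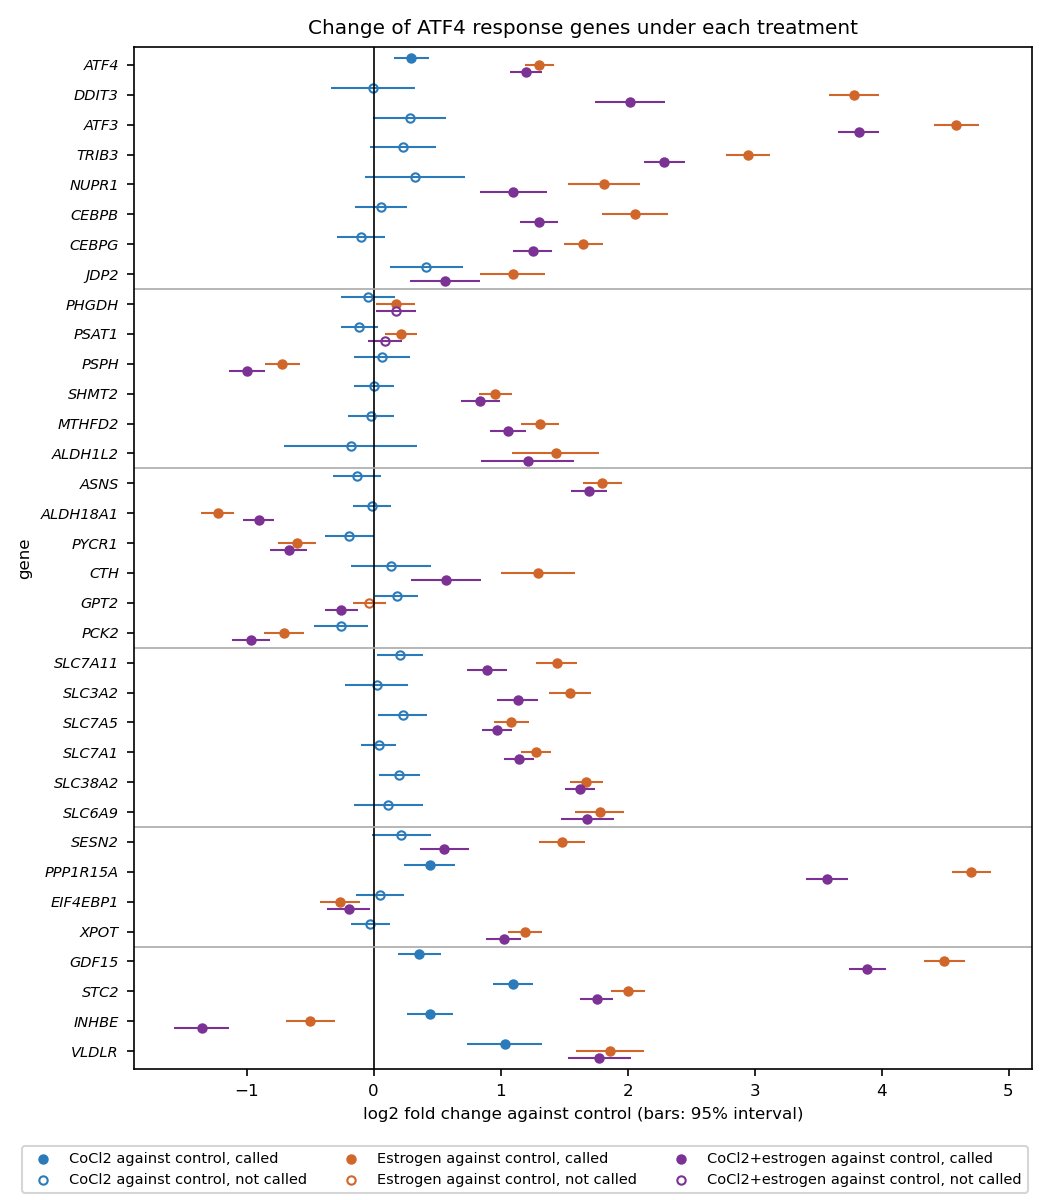
Log2 fold change against control (x axis, bars are 95% intervals) of the 34 tested members for CoCl2, estrogen and CoCl2+estrogen. Filled points were called and open points were not. The CoCl2 points lie near 0 except for STC2 and VLDLR, and the largest rises are those of PPP1R15A, ATF3 and GDF15 with estrogen.

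CoCl2 alone moved few members. Of 34, 6 were called, all higher, beside 1.44% of all tested genes called in either direction and 1.31% called higher. The median log2 change was 0.09 over the members and -0.00 over all genes. STC2 rose by 1.10 ± 0.07 and VLDLR by 1.03 ± 0.13 on the log2 scale (edgeR adjusted p = 1.40e-05 and 0.00186). INHBE, PPP1R15A, GDF15 and ATF4 rose by 0.45 ± 0.08, 0.44 ± 0.09, 0.36 ± 0.08 and 0.30 ± 0.06 (edgeR adjusted p = 0.0217, 0.0382, 0.0499 and 0.0471). The last 4 calls rest on few libraries. The count of called members was 2 without control A, without control B or without CoCl2 C, 3 without control C, 4 without CoCl2 A and 5 without CoCl2 B. The highest adjusted p over 14 alternatives was 0.323 for ATF4, 0.308 for GDF15, 0.246 for PPP1R15A and 0.119 for INHBE, against 0.000495 for STC2 and 0.0197 for VLDLR.

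Several members commonly read as markers of ATF4 activity were not called with CoCl2. ATF3, TRIB3 and ASNS had log2 differences of 0.28 ± 0.13, 0.23 ± 0.12 and -0.13 ± 0.08 with 95% intervals of -0.01 to 0.57, -0.03 to 0.49 and -0.32 to 0.06. None of the 6 serine and one-carbon genes was called by edgeR or DESeq2, beside 1.44% of all tested genes called by edgeR. None of the 6 had an unadjusted edgeR p under 0.05, beside 12 of the 34 members and 1789 of 15872 tested genes. By role the 12 included 2 of 8 regulators, 2 of 6 amino acid enzymes and 3 of 6 transporters. The rest were 1 of 4 tested stress effectors and 4 of 4 tested secreted and receptor genes. HIF1 target genes moved in the same libraries: 11 of 12 on a list of known targets were higher with CoCl2, beside 1.31% of all tested genes, with PFKFB3, a glycolytic regulator, going from 13.8 to 108 CPM. SLC7A5 was called without CoCl2 B (log2 change over 14 alternatives 0.17 to 0.32), and not in the other 13.

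With both agents, 32 of 34 members were called against control, 25 higher and 7 lower, beside 65.4% of all tested genes, 32.3% higher and 33.2% lower. Changes of more than 2-fold in either direction were found for 20 of the 34 members, beside 25.0% of all tested genes. Of the 20, 19 went up and INHBE went down, and the share of all genes was not split by direction. The median log2 change was 1.08 over the members and -0.01 over all genes. PPP1R15A, GDF15 and ATF3 were again the highest, at 3.57 ± 0.08, 3.89 ± 0.07 and 3.82 ± 0.08 on the log2 scale. PHGDH and PSAT1 were not called, with log2 differences of 0.18 ± 0.07 and 0.09 ± 0.06 and 95% intervals of 0.02 to 0.34 and -0.04 to 0.22. PHGDH was called in some alternatives, DESeq2 among them, and stayed uncalled in 7 of 14 (adjusted p 0.00923 to 0.350). The call of EIF4EBP1, which fell by 0.19 ± 0.08, was kept in 5 of 14 alternatives. It was lost with DESeq2, with median-ratio scaling, and without control A, control C, CoCl2+estrogen B or CoCl2+estrogen C, among others (adjusted p 0.00464 to 0.159). These fits and those with each single agent share the control libraries.

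Set against CoCl2 alone, the double treatment called 32 members, 25 higher and 7 lower, beside 60.9% of all tested genes, 30.1% higher and 30.8% lower. All 34 members had no overlap between those groups, beside 66.0% of all tested genes, and 32 were called without CoCl2 B as well. JDP2 and PHGDH were not called, at 0.16 ± 0.13 and 0.24 ± 0.10 on the log2 scale (edgeR adjusted p = 0.318 and 0.0566). PHGDH was called by DESeq2 and in other alternatives, and stayed uncalled in 6 of 14 (adjusted p 0.0127 to 0.196). The call of CTH (0.45 ± 0.14) was lost without CoCl2 C, that of EIF4EBP1 with DESeq2 and without CoCl2 C, CoCl2+estrogen B or CoCl2+estrogen C, and that of PSAT1 without CoCl2+estrogen A or CoCl2+estrogen C. The adjusted p over 14 alternatives reached 0.0568, 0.0975 and 0.0629 for CTH, EIF4EBP1 and PSAT1.

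Set against estrogen alone, adding CoCl2 called 19 members, 18 lower and only ALDH18A1 higher, beside 17.0% of all tested genes called in either direction, 8.85% lower and 8.14% higher. DDIT3 fell by 1.72 ± 0.10, PPP1R15A by 1.10 ± 0.06, SESN2 by 0.88 ± 0.07 and INHBE by 0.81 ± 0.11 on the log2 scale (edgeR adjusted p = 1.39e-09, 1.39e-09, 8.22e-08 and 5.47e-05). ATF4 itself was not called, with a difference of -0.07 ± 0.06 and a 95% interval of -0.18 to 0.05. The same held for ASNS, SLC7A5 and SLC7A1, with differences of -0.06 ± 0.06, -0.07 ± 0.06 and -0.10 ± 0.05 and intervals of -0.19 to 0.07, -0.20 to 0.06 and -0.20 to 0.01. The calls of PSPH, MTHFD2 and PCK2, each lower by about 0.2 on the log2 scale, were lost without estrogen A and, for PSPH and PCK2, also without estrogen B, CoCl2+estrogen A or CoCl2+estrogen B (PCK2 also without CoCl2+estrogen C).

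**Figure D4:**
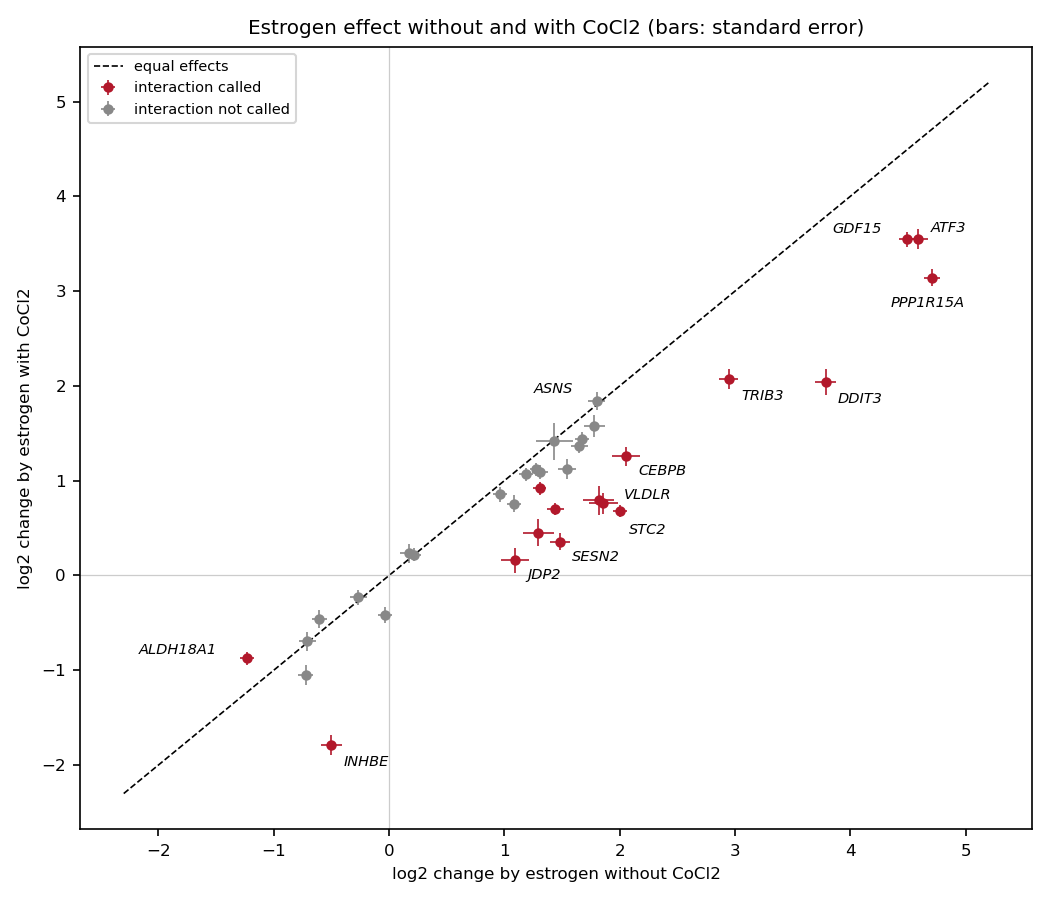
Log2 change by estrogen without CoCl2 (x axis, estrogen against control) and with CoCl2 (y axis, CoCl2+estrogen against CoCl2) for the 34 tested members, with standard errors and the line of equal effects. Members called in the interaction are red: 15 lie below the line, and ALDH18A1 lies above it.

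The interaction tests whether the estrogen effect differed between cultures with and without CoCl2. It was called for 16 of 34 members, beside 5.80% of all tested genes, 15 lower and 1 higher, beside 3.70% lower and 2.10% higher among all genes. Higher genes made up 36.2% of all interaction calls with TMM and 51.6% with library totals alone, while the members stayed at 15 lower and 1 higher. The median was -0.33 over the members and 0.01 over all genes. By role, 7 of 8 regulators were called, 4 of 4 tested secreted and receptor genes, 2 of 4 tested stress effectors, 1 of 6 transporters, 2 of 6 amino acid enzymes in opposite directions and 0 of 6 serine and one-carbon genes. In the last group edgeR gave 1 unadjusted p under 0.05, beside 21 of the 34 members and 3072 of 16681 tested genes. DESeq2 called 0 of that group. DESeq2 called 20 members in all and 3 of 6 transporters, and edgeR called 19 members without CoCl2 B.

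DDIT3 had the most negative interaction, -1.72 ± 0.17 (edgeR adjusted p = 6.09e-06): estrogen raised it by 3.79 ± 0.09 without and by 2.04 ± 0.14 with CoCl2. PPP1R15A followed at -1.54 ± 0.12, with estrogen effects of 4.71 ± 0.07 and 3.14 ± 0.09. ATF3 and GDF15 had interactions of -1.02 ± 0.11 and -0.93 ± 0.11 and rose by 3.55 ± 0.10 and 3.55 ± 0.08 in the presence of CoCl2, respectively.

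For STC2 and VLDLR the interaction went with a rise by CoCl2 alone. Their interactions were -1.30 ± 0.08 and -1.08 ± 0.17, and estrogen added 0.68 ± 0.06 and 0.76 ± 0.11 on top of CoCl2. INHBE fell further with CoCl2, by 1.78 ± 0.10 against 0.50 ± 0.09 without it (interaction -1.26 ± 0.14). JDP2 rose with estrogen only without CoCl2 by these calls, and its difference between the effects was called (-0.91 ± 0.16, edgeR adjusted p = 0.00172).

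ASNS, by contrast, rose by 1.80 ± 0.07 without and 1.84 ± 0.10 with CoCl2, and SLC38A2 by 1.68 ± 0.06 and 1.44 ± 0.07; neither interaction was called. CEBPG, GPT2 and SLC3A2 had interactions of -0.26 ± 0.09, -0.36 ± 0.11 and -0.40 ± 0.15 that were not called by edgeR (adjusted p = 0.131, 0.0634 and 0.142) and were called by DESeq2. GPT2 and SLC3A2 were also called by edgeR without CoCl2 B. The calls of ATF4 (-0.36 ± 0.09) and NUPR1 (-1.001 ± 0.24) were lost without control A, and that of ALDH18A1 (0.38 ± 0.09) without estrogen C. Over 19 alternatives their adjusted p spanned 5.87e-05 to 0.0619, 0.000445 to 0.0522 and 0.00268 to 0.0552.

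The other genes of the pathway were read from lists of known members. Upstream of ATF4, 17 of 18 eIF2 kinases, eIF2 and eIF2B subunits and their regulators were called with estrogen, 10 higher and 7 lower, beside 68.9% of all tested genes called, 34.7% higher and 34.2% lower. PPP1R15B, the constitutive eIF2 phosphatase subunit, rose from 95.3 to 239.8 CPM, EIF2B2, an eIF2B subunit, from 28.1 to 49.01 CPM, and EIF2AK4 (GCN2), the kinase of amino acid shortage, from 122 to 184 CPM. EIF2AK1 (HRI), the kinase of heme shortage, fell from 325 to 124 CPM, EIF2AK2 (PKR), the kinase of double-stranded RNA, from 142 to 71.5 CPM, and IMPACT, which restrains GCN2, from 9.11 to 3.71 CPM. With CoCl2 edgeR and DESeq2 each called 0 of the 18, beside 1.44% of all tested genes called by edgeR. An unadjusted edgeR p under 0.05 was found for 1 of the 18, beside 1789 of 15872 tested genes.

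Cytosolic aminoacyl-tRNA synthetases, which charge tRNA and several of which ATF4 induces, had 7 of 20 called higher and 9 lower with estrogen, with a median log2 change of 0.03. These shares lie near the 34.7% higher and 34.2% lower of all tested genes. SARS1, AARS1 and CARS1, for serine, alanine and cysteine, rose by 1.66 ± 0.06, 1.40 ± 0.06 and 1.37 ± 0.07. FARSB, RARS1 and WARS1, for phenylalanine, arginine and tryptophan, fell by 1.25 ± 0.07, 0.83 ± 0.07 and 0.64 ± 0.07. Of the 20, edgeR and DESeq2 called 0 with CoCl2, beside 1.44% of all tested genes called by edgeR. Only 1 of the 20 had an unadjusted edgeR p under 0.05, beside 1789 of 15872 tested genes.

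Of 20 further ATF4 targets, 14 were higher and 1 lower with estrogen, beside the same 34.7% and 34.2% of all tested genes, with a median of 0.70. VEGFA, the angiogenic growth factor, rose from 69.5 to 453 CPM, GADD45A, a growth arrest gene, from 20.4 to 191 CPM, and MAP1LC3B, an autophagosome protein, from 86.7 to 365 CPM. HMOX1, heme oxygenase, was the 1 that fell, from 83.2 to 41.96 CPM. With CoCl2, 3 of 19 were higher, beside 1.31% of all tested genes: DDIT4, an mTORC1 inhibitor, by 1.85 ± 0.10, HMOX1 by 1.14 ± 0.10 and VEGFA by 0.98 ± 0.08 on the log2 scale. Of the 19, 7 had an unadjusted edgeR p under 0.05 with CoCl2, beside 1789 of 15872 tested genes. VEGFA is also on the list of HIF1 targets, and whether any of the 3 rises came through ATF4 or through HIF1 was not tested.

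**Figure D5:**
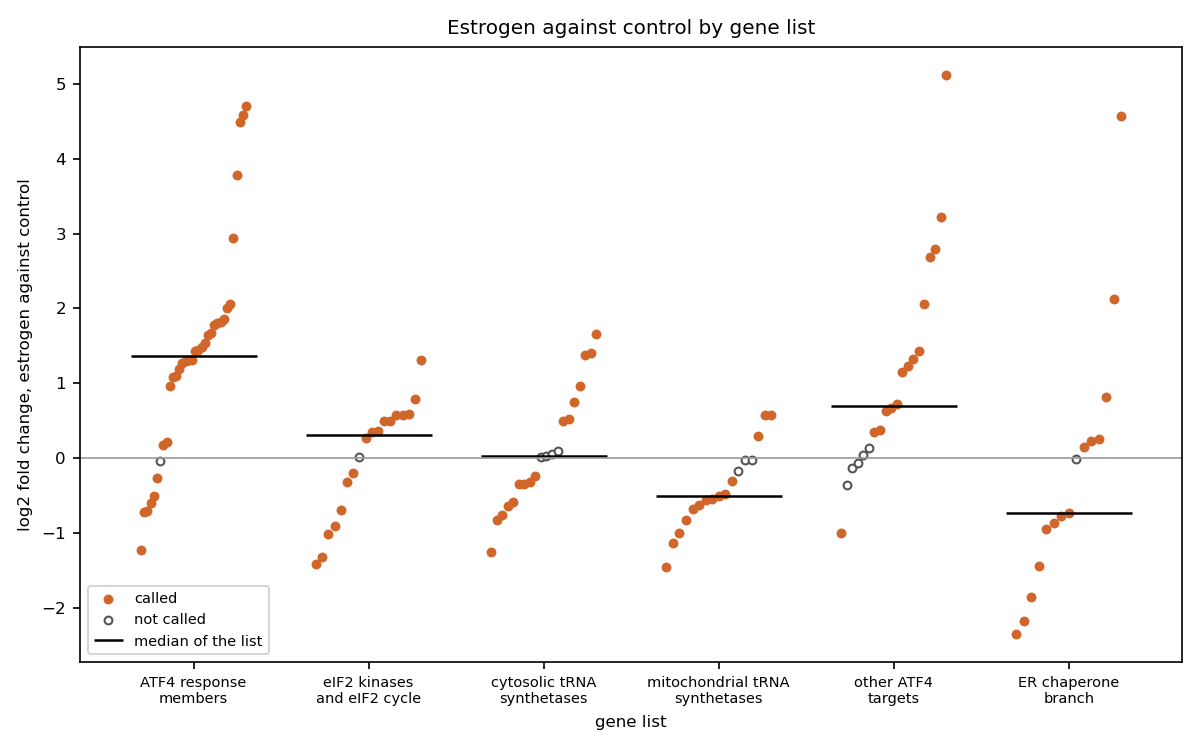
Log2 fold change of estrogen against control for each tested gene (points, filled where called) of the ATF4 response members and 5 related lists, with the median of each list as a line. The members' median is the highest, at 1.37, and the lists of mitochondrial synthetases and of the endoplasmic reticulum (ER) chaperone branch have medians below 0.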

How the data were processed

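RNA-Seq was performed in 12 HepG2 cultures; the mouse libraries of the series were not used here. The authors depleted ribosomal RNA, made stranded libraries, filtered out reads of rDNA, mitochondrial rDNA and tRNA with Bowtie2 2.2.5 and aligned the rest with STAR 2.7.8a in Partek Flow. The submitters' processing notes list the builds hg38 and mm10. The values the authors deposited are estimated counts of each gene on RefSeq transcripts, without scaling to depth; the strand setting is not given in the sources used here.

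After rounding, tests were run with edgeR 4.0.16 and, as an alternative, DESeq2 1.42.0 (R 4.3.3). Each comparison used its 6 libraries (12 for the interaction), TMM, genes whose count exceeded 5 in any library of the fit, and edgeR's quasi-likelihood test at a Benjamini-Hochberg adjusted p of 0.05. Functions were tested on simulated counts. Per-library values were given for ATF4, DDIT3, ATF3, TRIB3, ASNS and CHAC1, for the largest and smallest estrogen change in each role, and for members called with CoCl2 or in the interaction. From other lists, up to 3 called genes per direction with the smallest adjusted p were named. The members and lists were chosen with earlier results of these data known. Alternatives were DESeq2, other scalings and filters, the replicate block, a joint fit and leaving out each library. Standard errors and intervals come from edgeR's quasi-likelihood fit, whose variance for a gene also draws on all tested genes. They cover only the spread between the libraries of that fit. All 12 libraries entered the reported values.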

Additional observations from a re-analysis of the deposited data

Results flagged for a closer look

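The estrogen effect differed between cultures without and with CoCl2, by the interaction term of edgeR's fit over the 12 libraries, for 16 of the 34 tested members. The values are log2 differences (effect with CoCl2 minus effect without). Among the regulators they were -0.36 for ATF4, -1.72 for DDIT3, -1.02 for ATF3, -0.85 for TRIB3, -1.001 for NUPR1, -0.78 for CEBPB and -0.91 for JDP2. Among the enzymes and transporters they were 0.38 for ALDH18A1, -0.82 for CTH and -0.71 for SLC7A11. The stress effectors SESN2 and PPP1R15A had -1.10 and -1.54. GDF15, STC2, INHBE and VLDLR had -0.93, -1.30, -1.26 and -1.08. The cause of these differences was not tested.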

How the results depend on the processing

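Of the alternatives, 14 were run for each comparison of 2 groups and 19 for the interaction, and no member called in a comparison changed direction in any of them. The count of members called with CoCl2, 6, was 2 with library totals alone in place of TMM and 2 to 5 when 1 library was left out. The counts of members called in the other 5 comparisons, and of members past 2-fold with estrogen and with both agents, stayed within 1.5 times their values. The split by direction moved in several of them. ALDH18A1, the 1 member called higher in the interaction, lost its call without estrogen replicate C. The split of 25 higher and 7 lower with both agents became 26 and 6 with DESeq2, among other settings. This held against control and against CoCl2. Over 14 alternatives the log2 change with CoCl2 was 0.94 to 1.09 for VLDLR and 1.03 to 1.13 for STC2. PSAT1, not called with both agents, went from 0.09 to -0.0052 on the log2 scale with library totals alone. That setting shifted the median of all genes to -0.13 with estrogen and -0.10 with both agents, and moved the share of higher genes among all interaction calls from 36.2% to 51.6%, while the members stayed at 1 higher and 15 lower.

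With the replicate letter as a block (replicate block), 6 members were called with CoCl2, 32 with estrogen, 31 with both, 32 and 21 for both against CoCl2 and against estrogen, and 16 in the interaction. The block removed the calls of PHGDH with estrogen (adjusted p = 0.103) and of EIF4EBP1 with both agents against control (0.0898) and against CoCl2 (0.0584), and added those of PHGDH with both against CoCl2 (0.0392) and of GPT2 and XPOT with both against estrogen (0.00368 and 0.0325). Same-letter samples deviated together by more than 0.1 in 6 of 18 pairs and different-letter samples in 14 of 36. These pooled counts showed no excess for same letters, but cannot decide whether letters pair samples within a comparison. With the block, calls over all genes rose from 229 to 327 with CoCl2 and from 2706 to 3791 with both against estrogen. They fell from 11217 to 10620 with estrogen and from 10598 to 9902 with both. With both against CoCl2 they fell from 9860 to 9367, and in the interaction from 967 to 771. A planned search for ATF4 motifs in promoters was not run, since no human sequence was used here. CHAC1 and FGF21, at 4 counts or fewer per library, entered no fit with the filter. Without it, CHAC1 was called higher with estrogen and in no other comparison, and FGF21 in none.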

Other observations

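The ER chaperone branch of the unfolded protein response, driven by ATF6 and XBP1 rather than ATF4, went both ways with estrogen. Of 15 listed genes, 6 were higher and 8 lower, with a median log2 change of -0.73, beside 34.7% higher and 34.2% lower among all tested genes. ERN1 (IRE1α), the sensor that splices XBP1, rose by 4.56 ± 0.07 (SE), DNAJB9, an ER co-chaperone, by 2.13 ± 0.07 and EDEM1, which marks glycoproteins for degradation, by 0.82 ± 0.07. PDIA4 and CALR, which fold ER proteins, and CRELD2 fell by 2.17 ± 0.06, 1.44 ± 0.06 and 2.34 ± 0.14 on the log2 scale. With CoCl2 edgeR and DESeq2 called 0 of the 15, beside 1.44% of all tested genes called by edgeR. An unadjusted edgeR p under 0.05 was found for 1 of the 15, beside 1789 of 15872 tested genes.

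Mitochondrial aminoacyl-tRNA synthetases were mostly lower with estrogen, 11 of 17 called lower and 3 higher, with a median of -0.50, beside the same shares of all tested genes. EARS2, SARS2 and RARS2 fell by 1.13 ± 0.07, 1.45 ± 0.12 and 0.99 ± 0.09 on the log2 scale, and YARS2, MARS2 and WARS2 rose by 0.58 ± 0.08, 0.57 ± 0.10 and 0.30 ± 0.09. MARS2 was lower with CoCl2, by 0.51 ± 0.11. SARS1 and SARS2, the cytosolic and mitochondrial seryl-tRNA synthetases, thus went in opposite directions with estrogen, a pair named after its values were seen. Whether the lists differ from each other was not tested.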
